A study of Mus musculus with 3 samples.

Results

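Of the 6902 TRα peaks on chromosomes 1 to 19 of C17.2 mouse neural progenitor cells, 1261 shared at least 1 bp with a TRβ peak and at least 1 bp with an RXR peak. These 1261 TRα peaks are called triple sites here. They were chosen by the peak calls of all 3 lists, so the presence of each receptor at a triple site is a property of the choice and was not tested. The share of 18.3% describes the choice as well, and nothing is read from it. The remaining TRα peaks of these chromosomes comprised 1984 that met RXR but not TRβ, 265 that met TRβ but not RXR, and 3392 that met neither.

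Thyroid hormone receptors are nuclear receptors that bind DNA with or without their hormone, and TRα and TRβ are products of separate genes with closely related DNA-binding domains. RXR, the retinoid X receptor, is the common heterodimer partner of thyroid hormone receptors and of several other nuclear receptors. Without hormone, thyroid hormone receptors bound to DNA mostly recruit corepressors, and hormone exchanges these for coactivators.

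The study mapped the binding of each thyroid hormone receptor in a cell line that expressed it, and of RXR in the TRα line. Line C17.2a stably expressed TRα with a protein G tag, and line C17.2b stably expressed TRβ with the same tag. Both tagged receptors were recovered on IgG beads (chromatin affinity purification, ChAP-seq). For RXR, an antibody against all RXR forms (sc-774x) and protein A beads were used on C17.2a (ChIP-seq). The RXR cells therefore also carried tagged TRα. Whether the tag, which IgG beads bind, drew TRα into the antibody pull-down was not tested. Likeness between the TRα and RXR lists cannot be told apart from such carry-over. No cells were treated, and all had spent 24 h in serum-free medium before fixation. Each receptor was mapped in 1 line and 1 library, so TRβ differed from TRα in receptor, line and library together, and these cannot be told apart. Peak lists hold no expression values, so the cell type in the labels was not checked against markers. Unique tags came to 19786966 for TRα, 16556350 for TRβ and 16033622 for RXR, and the weakest listed peaks held 10, 6 and 10 tags. Without replicate libraries no test between receptors could be made. The 95% intervals below are exact binomial intervals for shares and order-statistic intervals for medians. They cover counting error or variation between sites only. All positions are on mm9.

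A triple site was in most cases a nest of 3 single peaks. At 1211 of the 1261 sites (96.0%) there was 1 TRβ peak and 1 RXR peak. At 48 sites there were 2 or more TRβ peaks, and at 2 sites 2 or more RXR peaks. The sites took in 1327 TRβ peaks (14.0% of that list on these chromosomes) and 1256 RXR peaks (18.1%), so some neighbouring sites shared an RXR peak. Where a site had several partners, the one with the closest summit was used. The TRβ peak lay wholly inside the TRα peak at 1197 sites (94.9%, 93.6 to 96.1) and wholly inside the RXR peak at 1234 sites (97.9%, 96.9 to 98.6). The TRα peak in turn lay wholly inside the RXR peak at 688 sites (54.6%, 51.8 to 57.3). Median widths were 256 bp for TRβ, 671 bp for TRα and 843 bp for RXR. The fragment size (d) that MACS had modelled was smallest for TRβ, at 56 bp, and came to 139 bp in the TRα library and 174 bp in the RXR library. Its part in the widths was not tested.

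Overlap by at least 1 bp was met with room to spare. The median stretch shared by the TRα and TRβ peaks was 254 bp and the smallest was 13 bp, with 4 sites under 50 bp. At 1260 sites the 3 closest peaks had a base in common. The exception was chr14:70917239-70917886, where the TRβ and RXR peaks missed each other by 7 bp within the TRα peak. Few sites fell just outside the rule. Where only RXR joined TRα, 13 of the 1984 sites had a TRβ peak within 500 bp and 23 within 1000 bp, with the nearest at 105 bp. Where only TRβ joined TRα, 5 of the 265 sites had an RXR peak within 500 bp, the nearest at 96 bp.

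The median triple site held 39 TRα tags, 15 TRβ tags and 40 RXR tags. The quartiles were 27 and 56 tags for TRα, 10 and 21 for TRβ and 27 and 56 for RXR. A site near these medians was chr10:79191037-79191675, with 38, 14 and 39 tags for TRα, TRβ and RXR. Another was chr17:35112528-35113069, also with 38, 14 and 39 tags. Both were named after their values were seen. In the whole lists of chromosomes 1 to 19 the median peak held 8 tags for TRβ and 22 for RXR. TRα peaks held a median of 26 tags where only RXR joined them, 21 where only TRβ did and 16 where neither did. Triple sites thus had the highest TRα tag counts of these 4 classes.

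The authors' peak score, minus 10 times log10 of the p-value of the peak caller MACS, gave the same order of classes. Median TRα scores were 107.8 at triple sites, 67.4 with RXR alone, 54.0 with TRβ alone and 45.3 with neither. The median triple site stood 14.8% from the top of the TRα list, 13.4% from the top of the TRβ list and 16.1% from the top of the RXR list. Weak members existed in each list. A score under 50, near the calling limit of 40, was found at 83 sites for TRα, at 117 for RXR and at 283 for TRβ (22.4%, 20.2 to 24.8). At 6 sites all 3 scores were under 50, and at 200 sites all 3 were at least 100.

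The share of triple sites rose in steps with the TRα score. Among 2992 TRα peaks with a score under 50, 2.77% were triple sites (2.22 to 3.43). From 80 to 100 the share was 33.3% (29.5 to 37.2), from 100 to 150 it was 50.5% (46.6 to 54.4), and from 150 to 200 it was 67.3% (61.2 to 73.1). Of the 219 TRα peaks with a score of at least 200, 188 were triple sites (85.8%, 80.5 to 90.2). The other 31 met RXR without TRβ, and 0 of 219 met TRβ alone or neither list, which allows a share of up to 1.67% for each by the exact interval. TRα peaks with RXR alone followed another course, rising from 14.4% under 50 to 51.6% between 80 and 100. From 200 upwards they stood at 14.2%. The classes exclude each other, so this fall goes with the rise of triple sites, which met RXR as well. TRα peaks with TRβ alone stayed between 0% and 6.27% in every band. Triple sites also had wider TRα peaks, with a median of 671 bp against 491 bp where neither list was met. A wider peak meets other peaks more easily, and no control library entered the peak calling. The part of either in the rise with score was not tested.

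**Figure D1:**
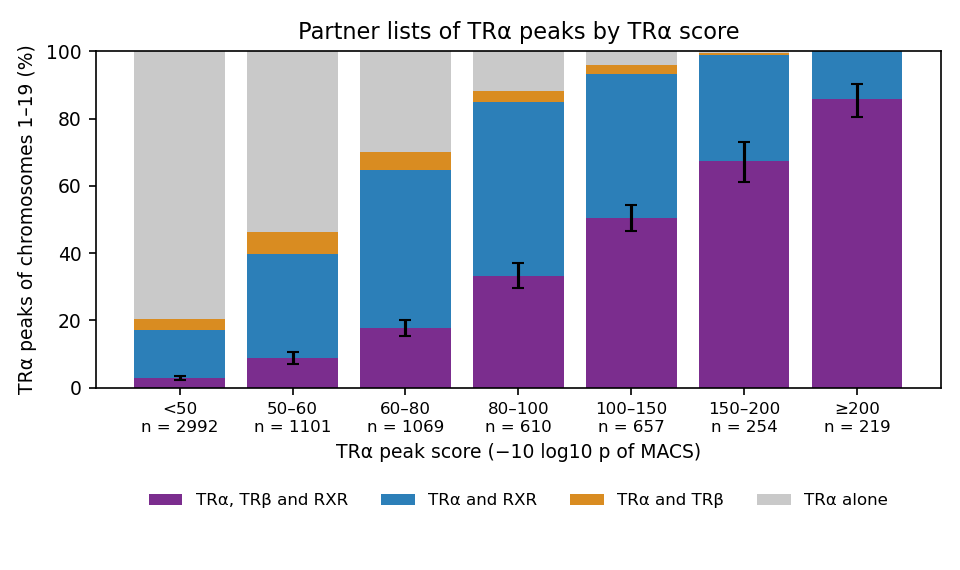
Share of TRα peaks of chromosomes 1 to 19 (y axis, %) in each partner class, by band of the TRα score (x axis, minus 10 times log10 of the MACS p-value, with the number of peaks in each band). Bars are stacked to 100% and black lines are exact binomial 95% intervals of the triple share, which goes from 2.77% in the lowest band to 85.8% in the highest.

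Summits of the 3 receptors lay close together at most triple sites. The choice by overlap limits these distances by the peak widths, so they are a description. The TRα and RXR summits, both from line C17.2a, were a median of 19 bp apart (17 to 21). TRα and TRβ summits were a median of 33 bp apart (29 to 36), and TRβ and RXR summits 36 bp (34 to 39). The largest of the 3 distances at a site had a median of 51 bp and quartiles of 25 and 85 bp. All 3 summits fell within 10 bp at 158 sites (12.5%, 10.8 to 14.5), within 50 bp at 621 (49.2%, 46.5 to 52.0) and within 100 bp at 1025 (81.3%, 79.0 to 83.4). At 9 sites the 3 summits were the same base, and at 66 sites they were more than 200 bp apart.

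Summits of the partners lay about equally often on either side of the TRα summit. The TRβ summit lay at the higher coordinate at 624 of the 1229 sites where it differed from the TRα summit (50.8%, 47.9 to 53.6). For RXR it did so at 607 of 1221 sites (49.7%, 46.9 to 52.6). Where 1 summit could be placed between the others, it was that of TRα at 479 of 1180 sites (40.6%, 37.8 to 43.5), that of RXR at 442 (37.5%, 34.7 to 40.3) and that of TRβ at 259 (21.9%, 19.6 to 24.4). TRβ was thus the middle summit least often. TRβ peaks held the fewest tags and had the smallest modelled fragment size, and the part of either in the summit positions was not tested.

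**Figure D2:**
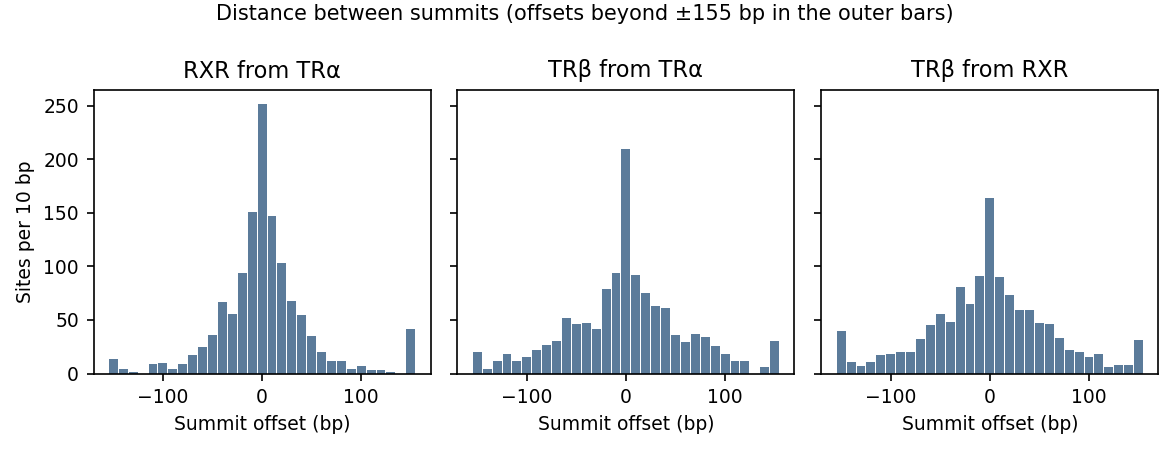
Signed distance between summits (x axis, bp) against the number of triple sites per 10 bp (y axis), for RXR from TRα, TRβ from TRα and TRβ from RXR. Distances beyond the axis are gathered in the outer bars, and all 3 histograms are centred near 0, with the narrowest for RXR from TRα at a median distance of 19 bp.

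The same distances were taken where the third list was missing. TRα and RXR summits were a median of 30 bp apart (28 to 31) at the 1984 sites without TRβ. TRα and TRβ summits were 44 bp apart (34 to 52) at the 265 sites without RXR. TRβ and RXR summits were 38 bp apart (27 to 48) at 230 sites of both without TRα, against 36 bp at triple sites. Triple sites had the higher TRα scores, so the TRα to RXR distance was also taken within bands of score. Between scores of 60 and 80 it was 22 bp (16 to 25) at 188 triple sites and 32 bp (27 to 34) at 503 sites without TRβ. Between 100 and 150 it was 19 bp (15 to 21) at 332 triple sites and 23 bp (20 to 27) at 281 sites without TRβ. The distance was smaller at triple sites in both bands, and in the higher band the intervals met. Only these bands were compared, and RXR scores and peak widths were not matched.

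Tags were set against each other per 1000000 unique tags of the library. On this scale the median log2 ratio of RXR to TRα tags in the peaks was 0.30 (0.28 to 0.35), with quartiles of 0.01 and 0.63. RXR exceeded TRα at 950 sites (75.3%, 72.9 to 77.7) and lay within a factor of 2 of it at 1160 sites (92.0%, 90.4 to 93.4). The median log2 ratio of TRβ to TRα tags was -1.07 (-1.14 to -1.03), with quartiles of -1.60 and -0.50. TRβ exceeded TRα at 113 sites (8.96%, 7.44 to 10.7), lay within a factor of 2 at 569 (45.1%, 42.4 to 47.9) and was lower than TRα by more than 2 on the log2 scale at 140 (11.1%, 9.42 to 13.0). Tags were counted over peaks of unequal width. Per base of peak the median log2 ratio of TRβ to TRα was 0.29, which reverses its sign, and that of RXR to TRα was 0.020. Which receptor gave more signal at a triple site therefore depends on whether tags are taken per peak or per base.

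RXR followed TRα across sites more closely than TRβ did. The Spearman correlation of tags over the 1261 sites was 0.82 for TRα and RXR, 0.51 for TRα and TRβ and 0.47 for TRβ and RXR. Pearson correlations of log2 tags were 0.87, 0.65 and 0.63 in the same order. TRα and RXR came from the same line, the TRβ counts were the lowest, and the width of a peak enters its own tag count, so these values describe the lists and carry no test. Both ratios to TRα were lower where TRα tags were high, which a split by the denominator of a ratio builds in, so nothing is read from it. Among the 338 sites with 10 to 27 TRα tags, the median log2 ratio of TRβ to TRα was -0.50 (-0.58 to -0.38). Among the 307 sites with 57 to 1995 TRα tags it was -1.53 (-1.63 to -1.36). Median TRβ tags were 11 in the former and 22 in the latter, while median TRα tags were 21 and 75. The median log2 ratio of RXR to TRα was 0.49 in the former and 0.21 in the latter. A TRβ peak needed at least 6 tags to be listed, so low ratios could not appear among sites with few TRα tags.

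**Figure D3:**
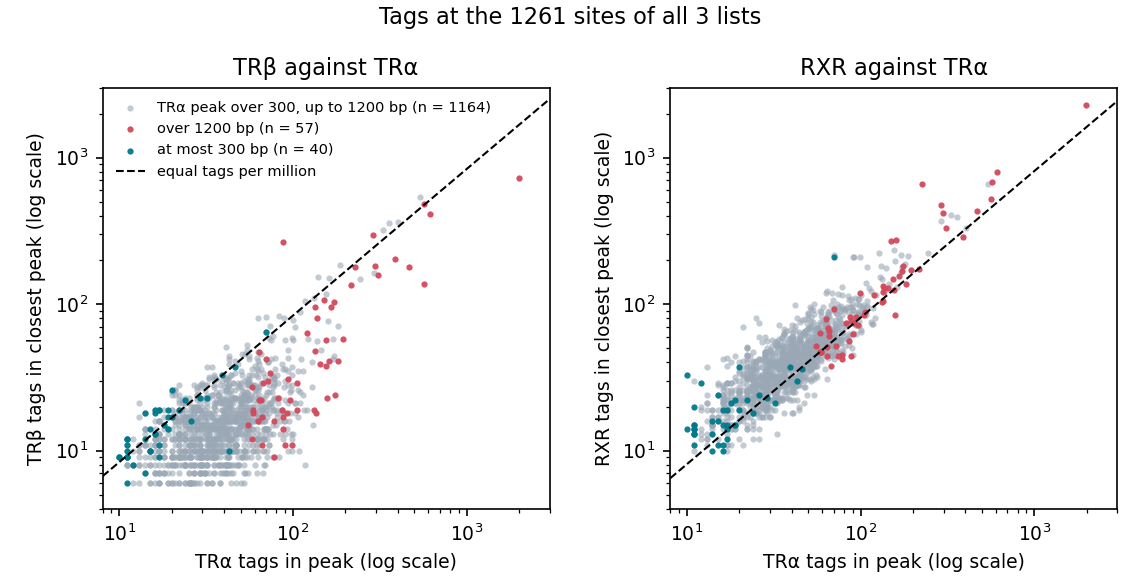
Tags in the TRβ peak (left y axis) and in the RXR peak (right y axis) against tags in the TRα peak (x axes) at each of the 1261 triple sites, all on log scales. The dashed line marks equal tags per 1000000 unique tags. RXR lies above the line at 950 sites and TRβ at 113, and most of the 40 sites with a TRα peak of at most 300 bp lie near the line in the TRβ panel.

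Sites at the ends of the TRβ ratio are given as examples. A triple site needed a listed TRβ peak, so the low end is limited by the choice and by the calling limit. At chr7:72882009-72882958 the TRα peak held 117 tags, the RXR peak 73 and the TRβ peak 8. The log2 ratio of TRβ to TRα there was -3.61 (counting interval -4.86 to -2.59), the lowest of all. At chr1:57284565-57285183 the counts were 98 for TRα, 90 for RXR and 10 for TRβ, a log2 ratio of -3.04 (-4.14 to -2.10). The 3 summits of that site lay within 16 bp of each other, so the TRβ peak was small but in the same place. Among the 5 lowest ratios the TRβ peaks held 7 to 10 tags.

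The highest ratio was found at chr3:142221700-142223301, with 88 TRα, 266 TRβ and 44 RXR tags. Its log2 ratio of TRβ to TRα was 1.85, with a counting interval wholly above 0, but the TRβ fold of 3.21 was low and the TRβ summit lay 728 bp from the TRα summit. The fold is the authors' enrichment ratio for a peak, and the headers do not define its background. The next 4 ratios lay between 0.62 and 0.95, at sites of 13 to 20 TRα tags, and their counting intervals all held 0. A clear excess of TRβ in peak tags was thus found at 1 of these 5 sites. Ratios of few tags vary most, so the highest ratios do not show where an excess was clear. Intervals wholly above 0 also occurred at lower ratios with more tags, such as 0.25 (0.04 to 0.47) at chr9:35112694-35113453.

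Ratios of RXR to TRα ran over a narrower range. The highest was 2.04 (1.32 to 2.82) at chr6:29698759-29699184, with 21 TRα, 17 TRβ and 70 RXR tags, where the RXR peak was 1268 bp wide and the TRα peak 426 bp. The lowest was -1.04 (-2.09 to -0.08) at chr4:33859705-33860458, with 33 TRα, 32 TRβ and 13 RXR tags. At the latter site both thyroid hormone receptors were close to each other and RXR was the weak partner, near its calling limit with a score of 40.8. At 160 sites (12.7%, 10.9 to 14.7) TRβ and RXR both lay within 0.5 of TRα on the log2 scale.

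The strongest triple sites, by the sum of their ranks in the 3 lists, had TRβ tags close to those of TRα, scaled per 1000000 unique tags, and mostly somewhat more RXR tags. At chr17:36621278-36622026 the TRα, TRβ and RXR peaks held 402, 363 and 333 tags, and their summits lay within 10 bp. At chr6:103598870-103599369 they held 132, 111 and 149 tags, with folds of 20.6, 39.8 and 18.9. At chr4:70038834-70039665 they held 187, 184 and 213 tags with folds of 18.9, 40.3 and 15.1. Over the 10 sites of lowest rank sum the log2 ratio of TRβ to TRα ran from -0.45 to 0.25, against a median of -1.07 over all triple sites. With all TRβ peaks of a site, which 4 of the 10 had more than 1 of, it ran from -0.11 to 0.53. The log2 ratio of RXR to TRα ran from 0.0060 to 0.80 with a median of 0.46, against 0.30 over all triple sites. The rank sum favours sites that are strong in every list, so the closeness of TRβ follows in part from the choice. At the other end chr12:77559977-77560337, the site of highest rank sum, held 12, 6 and 14 tags, and its TRβ summit lay 239 bp from the TRα summit.

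Not all of the 10 were compact. At chr2:98502370-98503256 the 540, 535 and 661 tags came with folds of only 5.70, 7.01 and 4.45. At chr15:74915650-74917597 the TRα peak was 1948 bp wide and held 564 tags at a fold of 7.77. The site with the most TRα tags of all, chr17:39979842-39985877, was a block of 6036 bp with 1995 TRα and 2293 RXR tags. It met 2 TRβ peaks, of which the one with the closer summit held 722 tags and both together 2463. The log2 ratio of TRβ to TRα was -1.21 with the closer peak and 0.56 with both, so its sign depends on this choice. The folds of 3.25 for TRα, 3.05 for the closer TRβ peak and 3.29 for RXR were the lowest of all triple sites in each list. No control library entered the peak calling, so whether such places collect tags in any pull-down was not tested.

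Profiles of triple sites differed with the width of the TRα peak. The limits of 300 and 1200 bp were set after the values were seen and mark no tested division. The 24 sites of 301 to 349 bp, counted below with the wider ones, had a median summit span of 10.5 bp. Their median log2 ratio of TRβ to TRα was -0.20. Most sites, 1164, had a TRα peak over 300 and up to 1200 bp wide, with median tags of 38, 14 and 40 for TRα, TRβ and RXR. There the summits spanned a median of 52 bp, and the median log2 ratio of TRβ to TRα was -1.10 (-1.16 to -1.04).

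The 40 sites with a TRα peak of at most 300 bp had summits close together. Overlap with a narrow peak limits how far apart summits can lie, so this closeness follows in part from the choice. Their median tags were 16, 13.5 and 16 for TRα, TRβ and RXR, few in number, yet their median folds were 13.7, 29.1 and 12.2. The 3 summits spanned a median of 3 bp (2 to 5), and fell within 10 bp at 35 of the 40 sites (87.5%, 73.2 to 95.8) against 123 of the 1221 wider ones (10.1%, 8.44 to 11.9). The median log2 ratio of TRβ to TRα tags was 0.02 (-0.04 to 0.12), a value that the limit on TRα width, and so on TRα tags, fixes in part. By the authors' folds TRβ stood above TRα at these sites, as it did over all triple sites (medians of 11.5 and 10.6). Folds come from separate runs with an undefined background, so they do not rank the receptors. The TRβ peak was itself at most 120 bp wide at 29 of the 40 sites (72.5%, 56.1 to 85.4), against 58 of the 1221 wider ones (4.75%, 3.63 to 6.10). Examples are chr3:28780296-28780575 with 46, 37 and 36 tags, and chr5:104792298-104792570 with 32, 23 and 21 tags. Their summits lay within 2 and 1 bp, and their TRβ folds were 45.9 and 56.1. Such narrow TRα peaks were not special to triple sites, as they made up 3.17% of these (2.28 to 4.29), 0.81% of the TRα peaks with RXR alone (0.46 to 1.31), 6.04% of those with TRβ alone (3.49 to 9.62) and 2.12% of those with neither (1.66 to 2.67).

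The 57 sites with a TRα peak over 1200 bp were the opposite in several respects. They held a median of 106 TRα, 31 TRβ and 93 RXR tags, with lower median folds of 8.28, 9.92 and 7.25. Their summits spanned a median of 88 bp (53 to 119), and the upper quartile was 290 bp. The median log2 ratio of TRβ to TRα was -1.38 (-1.71 to -1.01) with the closest TRβ peak, and -1.01 (-1.61 to -0.24) with all TRβ peaks of a site. Peaks this wide made up 4.52% of triple sites (3.44 to 5.82) against 1.41% of the TRα peaks with RXR alone (0.94 to 2.03), 2.26% of those with TRβ alone (0.84 to 4.86) and 0.65% of those with neither (0.41 to 0.98). The interval for TRβ alone overlapped that of triple sites. Width and tag count are tied by the calling of a peak, so the order of the width groups by tags, and by ratios to TRα tags, is no separate result.

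**Figure D4:**
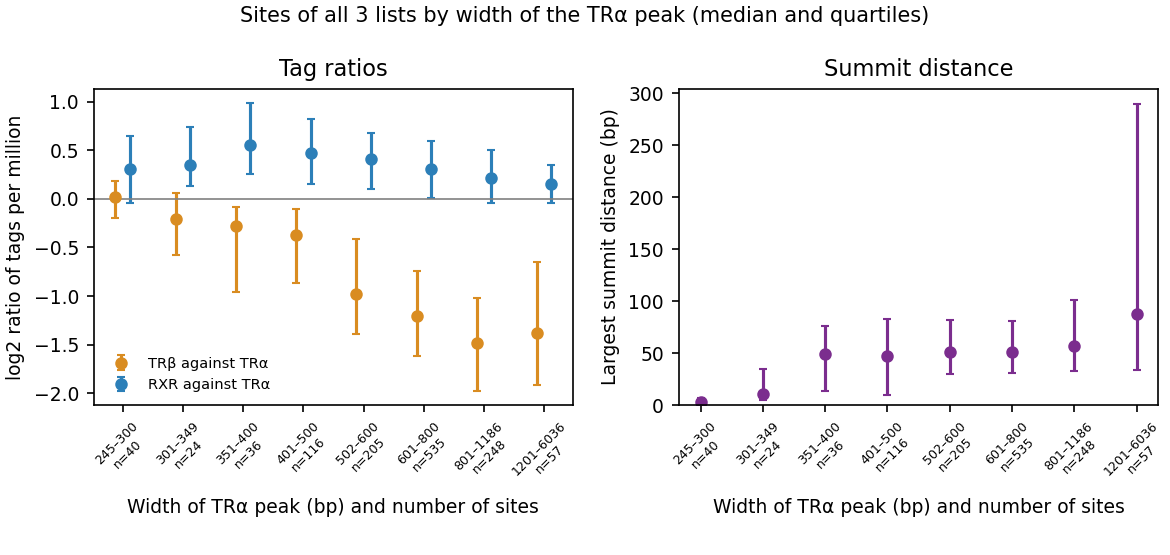
Median and quartiles of the log2 ratios of TRβ and RXR to TRα tags per 1000000 unique tags (left) and of the largest distance between the 3 summits in bp (right), for triple sites in classes of TRα peak width (x axes, bp, with the number of sites). The TRβ ratio goes from 0.02 in the narrowest class to -1.48 at 801 to 1186 bp, and the summit distance from 3 to 88 bp.

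Triple sites were spread over all 19 autosomes. Their share of the TRα peaks ran from 12.1% on chromosome 13 (34 of 282, 8.50 to 16.4) to 25.5% on chromosome 19 (52 of 204, 19.7 to 32.0). By the same peak rule 145 of the 272 TRα peaks outside these chromosomes met both other lists, and they were left out here. The median gap to the next triple site was 938140 bp. Of 1242 neighbouring pairs, 53 were less than 10 kb apart and 203 less than 100 kb.

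**Figure D5:**
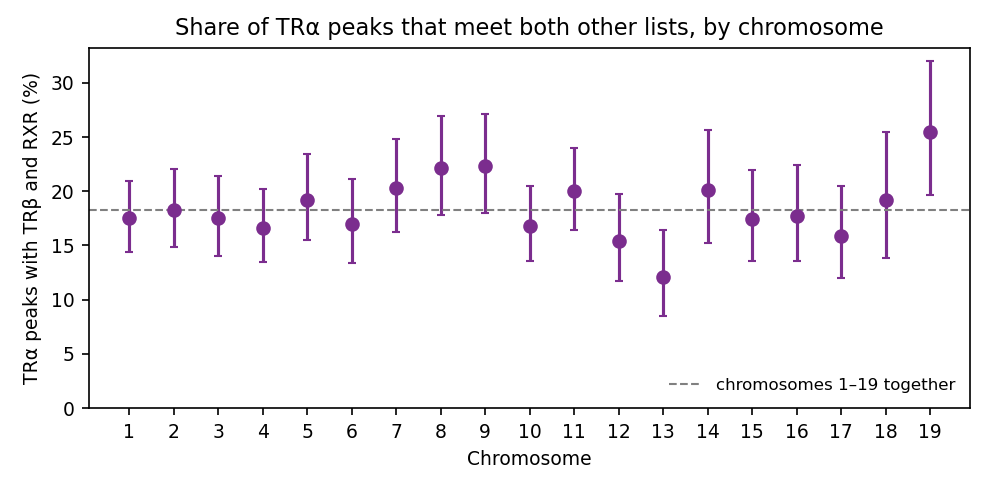
Share of TRα peaks that were triple sites (y axis, %) on each autosome (x axis), with exact binomial 95% intervals. The dashed line is the 18.3% of chromosomes 1 to 19 together, and the points run from 12.1% on chromosome 13 to 25.5% on chromosome 19.

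A few places were crowded. The 1 Mb bin with the most triple sites was chromosome 8 from 19 to 20 Mb, with 10 triple sites among 17 TRα, 75 TRβ and 14 RXR peaks. These 10 sites were weak in tags, with 13 to 35 for TRα, 8 to 31 for TRβ and 11 to 29 for RXR. Their median log2 ratio of TRβ to TRα was -0.22, against -1.07 at triple sites as a whole. Few TRα tags raise this ratio by construction. At the 338 triple sites with 10 to 27 TRα tags it was -0.50. Next came chromosome 9 from 3 to 4 Mb with 9 triple sites. In all, 47 of the 1261 triple sites (3.73%, 2.75 to 4.93) lay in 1 Mb bins where at least 1 list had 15 or more peaks.

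The start of the assembled chromosomes, which in the mouse lies next to the centromere, stood out in another way. Within 200 kb above the lowest start in the lists (2999863), a stretch chosen after its values were seen, 16 of 26 TRα peaks were triple sites (61.5%, 40.6 to 79.8), and 9 of the 16 were on chromosome 9. They held medians of 156.5 TRα, 74 TRβ and 217 RXR tags, several times those of triple sites as a whole, at a median TRα fold of 6.50 against 10.6. At chr9:3025197-3027912 a TRα peak of 569 tags met 7 TRβ peaks, the most at any triple site, and an RXR peak of 677 tags. Of the 25 triple sites with the lowest rank sum, 4 lay in this stretch and 8 had a TRα peak over 1200 bp. Among all 1261 triple sites these numbers were 16 and 57. Whether repeated sequence takes part in these counts was not tested.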

How the data were processed

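Peaks were taken from 3 lists as deposited, TRα and TRβ from ChAP-seq and RXR from ChIP-seq, with 1 library each. The submitters' processing notes name CASAVA 1.7, Bowtie 0.12.7 and the build mm9. Per the file headers, MACS was run on 1 library at a time with no control file. Its settings were a p-value limit of 1e-04, tags of 36 bp, a model fold of 5, a genome of 2.7 Gb and a band width of 500 bp, or 300 bp in the RXR run. The version of MACS was not given in the sources used here. Each list gives the count of tags in a peak, which the authors did not normalize. It also gives the authors' score, minus 10 times log10 of the p-value, and a fold, a ratio deposited by the authors whose background the headers do not define.

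RXR starts were raised by 1 bp. TRα peaks of chromosomes 1 to 19 that shared at least 1 bp with a peak of each other list were kept. Tags were scaled per 1000000 unique tags of the library. Intervals were exact (95%). Named sites were the 10 with the lowest sum of ranks by score, the 5 highest and 5 lowest by each tag ratio, the 5 with the most partner peaks, the 5 with the closest summits among the best-ranked sites (lowest quartile of the rank sum), and the 1 Mb bin with the most triple sites. Others were named after their values were seen. Members, classes and settings were chosen with earlier results of these data known. Genes, start sites and response-element motifs were not analysed, as no genome or annotation of mm9 was used here, and no sequence is printed. Overlap, distance and tag-ratio steps were tested on simulated data, and interval steps were not. Python 3.11.15, numpy 2.4.6, pandas 2.3.3, scipy 1.17.1 and matplotlib 3.10.9 were used.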

Additional observations from a re-analysis of the deposited data

How the results depend on the processing

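For 6 results, 28 alternative values were computed. Of these 17 stayed within 1.5 times the count or within the interval of the median, 10 moved and 1 reversed. A reciprocal overlap of 50% left 226 triple sites, a rule that a narrow TRβ peak inside a wide TRα peak fails by construction. With a score of at least 60 in each list there were 617 sites, and where the closest peaks had such scores (615 sites) the summit distances were 25 bp for TRα and TRβ, 16 bp for TRα and RXR and 31 bp for TRβ and RXR, and the log2 tag ratios were -0.94 for TRβ and 0.27 for RXR against TRα. Scaling by all tags gave -1.30 and 0.28. Tags per base of peak gave 0.29, the reversal, and 0.020. The cause was not tested beyond the construction of these settings. The other counts ran from 1071 to 1261. The count of 1071 asked for a TRβ and an RXR summit each within 100 bp of the TRα summit. It asked for no overlap and set no limit between the TRβ and RXR summits. TRα peaks over 300 and up to 1200 bp wide, a setting chosen after seeing the data, gave 1164 sites. Settings for motifs and start sites were not run. The lowest counts per peak, 10, 6 and 10 tags for TRα, TRβ and RXR, limit which sites could be called. No paired analysis was possible because every receptor was mapped in a single library.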

Other observations

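The 87 triple sites whose TRβ peak was at most 120 bp wide, a class set after its values were seen, had median tags of 20 for TRα, 12 for TRβ and 20 for RXR. Their median TRβ fold was 26.2 (23.3 to 29.8), against 11.2 (11.0 to 11.5) at the other 1174 sites. Their summits spanned a median of 5 bp (4 to 8), against 53 bp (51 to 57). Peak widths limit this span, and these sites had narrower TRα peaks too. The median log2 ratio of TRβ to TRα tags per 1000000 unique tags was -0.28 (-0.44 to -0.15) at the 87 sites. At the other 1174 it was -1.14 (-1.18 to -1.06). The 87 sites held fewer TRα tags, which raises this ratio by construction.

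At TRα scores from 100 to 150 the median log2 ratio of RXR to TRα tags per 1000000 unique tags was 0.26 (0.19 to 0.33) at 332 triple sites and 0.14 (0.06 to 0.21) at 281 sites where only RXR joined TRα. Between scores of 60 and 80 the values were 0.44 (0.37 to 0.53) and 0.41 (0.37 to 0.46). The intervals overlapped in both bands.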
